A study of Rattus norvegicus with 24 samples.

Results

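Homeobox genes of the named patterning families were followed through the proximal tibial growth plate of young rats. The set holds every gene whose single symbol on the array begins with Hoxa, Hoxb, Hoxc, Hoxd, Dlx, Irx, Msx, Meis, Pbx, Lhx, Prrx, Pitx, Tlx, Nkx, Pax, Shox, Alx or En, or with the stem of the sine oculis homologs (as in Six4), followed by a number. That gives 70 genes of 14217 with one symbol. Where several probe sets read 1 gene, the one with the highest mean log2(signal + 16) over all 24 arrays stood for it. Of the 70 genes, 24 carried Hox symbols, the non-coding Hoxa11-as among them.

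The study microdissected growth plate cartilage of rats aged 1 week and measured RNA on expression arrays, 1 array per zone and animal. The sample descriptions number the animals 1 to 5 in every zone, and animal 3 has no epiphyseal array here. That a number stands for the same rat in both sets of labels described next is taken from these numbers. The groups were epiphyseal cartilage (4 arrays), the resting zone (5), the proliferative zone (5), the transition zone between proliferative and hypertrophic cartilage (5) and the hypertrophic zone (5). No animal used here was castrated, 1 set of labels states that there was no treatment, and no mutation or strain is given in the sources used here. Resting, proliferative and hypertrophic arrays share one wording of the labels, which names male rats, while epiphyseal and transition arrays carry another wording that gives no sex. A comparison that crosses these wordings cannot tell zone and label set apart. Frozen sections of 60 um were dissected by hand, and 50 to 100 ng of total RNA was amplified before labelling. In such bulk tissue, fewer cells of a type and less RNA per cell cannot be told apart.

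Homeobox genes encode transcription factors that bind DNA through a homeodomain. Hox genes lie in clusters, and their order along the chromosome follows the order of their domains along the body and limb. Meis and Pbx proteins are homeodomain partners of Hox proteins on DNA. Shox2 and Pitx1 are known from limb outgrowth and hindlimb identity, Dlx3 and Dlx5 from bone and cartilage differentiation, and Irx3 and Irx5 from early patterning of the hindlimb in mice. In the growth plate, resting chondrocytes supply columns of dividing cells, which enlarge, express collagen X and are then replaced by bone.

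The homeodomain core TAAT was looked for in the promoters of members, on both strands, so as TAAT or ATTA. Promoters (250 bases before to 50 after the start, RefSeq, GRCr8) were at hand for 50 members with 55 start sites. They are shown for Hoxa9 and Hoxa10, neighbours in the HoxA cluster that fell together across the zones, and for Irx3, which lies beside Irx5 on chromosome 19. Capitals mark each match, and overlapping matches run together.
Hoxa9, chr4:82656999-82657298, minus strand: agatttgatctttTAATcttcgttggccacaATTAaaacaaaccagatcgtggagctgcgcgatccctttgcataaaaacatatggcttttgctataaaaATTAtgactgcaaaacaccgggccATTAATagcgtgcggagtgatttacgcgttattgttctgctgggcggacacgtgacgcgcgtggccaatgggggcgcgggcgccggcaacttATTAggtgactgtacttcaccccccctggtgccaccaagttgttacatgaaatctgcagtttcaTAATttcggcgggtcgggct
Hoxa10, start nearer Hoxa9, chr4:82665873-82666172, minus strand: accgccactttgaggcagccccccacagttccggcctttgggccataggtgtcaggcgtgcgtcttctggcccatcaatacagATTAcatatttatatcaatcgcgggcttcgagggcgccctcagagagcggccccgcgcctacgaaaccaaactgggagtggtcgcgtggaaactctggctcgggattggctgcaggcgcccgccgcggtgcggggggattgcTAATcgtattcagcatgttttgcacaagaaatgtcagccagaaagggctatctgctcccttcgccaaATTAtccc
Hoxa10, start farther from Hoxa9, chr4:82671441-82671740, minus strand: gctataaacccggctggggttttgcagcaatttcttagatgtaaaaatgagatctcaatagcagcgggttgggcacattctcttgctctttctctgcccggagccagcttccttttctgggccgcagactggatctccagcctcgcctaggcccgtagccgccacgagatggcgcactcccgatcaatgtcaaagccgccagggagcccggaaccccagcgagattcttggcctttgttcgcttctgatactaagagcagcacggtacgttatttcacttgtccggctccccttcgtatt
Irx3, chr19:31384868-31385167, plus strand: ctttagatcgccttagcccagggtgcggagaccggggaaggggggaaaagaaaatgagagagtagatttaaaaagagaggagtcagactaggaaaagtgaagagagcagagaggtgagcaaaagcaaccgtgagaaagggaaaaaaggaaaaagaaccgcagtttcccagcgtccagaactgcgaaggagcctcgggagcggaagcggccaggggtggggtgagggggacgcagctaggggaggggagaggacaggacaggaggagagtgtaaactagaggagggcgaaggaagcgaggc
The Hoxa9 window held 7 matches, the Hoxa10 windows 3 and 0, and the Irx3 window 0. At least 1 match stood in 26 of the 55 member promoters (47.3%) and in 60.6% of all 33469 promoters of this length. Member promoters held a median of 21 CG pairs, and all promoters a median of 7. The Hoxa9 window held 21 CG pairs and the Irx3 window 13. A match is a string of letters here, not a measured site.

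Values were MAS5 signal intensities. The mean of an array without its lowest and highest 2% of probe sets was 500.14 to 500.2, and the median signal of an array lay between 135.3 and 244.6. Probe sets brighter than the median of all probe sets on 4 arrays or more were tested, 19213 of 31042. A probe set was called in a comparison when limma gave an adjusted p under 0.05 and at least a 2-fold difference, with the animal as a block. Tissue labels were checked first. Acan, the main cartilage proteoglycan, read 24209 to 62229 in every array, and all 5 markers of hypertrophic cartilage were called higher in hypertrophic than in resting and in proliferative cartilage. Epiphyseal arrays also held hypertrophic markers, at sums of 9435 to 60515 against 82159 or more in hypertrophic arrays, and Mmp13 averaged 12596 ± 7067 in hypertrophic (n = 5) and 16607 ± 17250 in epiphyseal arrays (n = 4, SD). None of 4 proliferative markers was called in proliferative minus resting cartilage by limma, 3 of them having an unadjusted p under 0.05, with sums of 5602 to 8979 in proliferative and 3602 to 5611 in resting arrays. The summed resting markers (Sfrp5, Grem1 and Bmp3) read 6848 to 9728 in resting arrays, against 3853 to 6813 in epiphyseal arrays and no more than 1217 elsewhere.

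Markers of other tissues moved with the zones. Summed signal of the osteoblast markers was 4913 to 63870 in hypertrophic arrays, 903.3 to 3541 in resting arrays and 1068 to 1957 in proliferative arrays. All 3 osteoblast markers tested were called higher in the hypertrophic zone than in either other zone, as were all 3 erythroid markers. Of 6 osteoclast and macrophage markers, 6 were higher in hypertrophic than in proliferative cartilage and 6 lower in transition than in epiphyseal cartilage. The hypertrophic array of animal 4 stood apart, with 63870 for osteoblast markers against 4913 to 14577 in the other hypertrophic arrays. It also stood apart in osteoclast and macrophage markers (84237 against 8793 to 13228) and perichondrium and tendon markers (22941 against 1754 to 4290). Its endothelial markers summed to 2275, against 787 to 980. Muscle markers summed to 43638, 80183 and 56530 in the resting arrays of animals 1, 3 and 5, against 10880 and 12641 in animals 2 and 4, and 5 of 10 were lower in proliferative than in resting cartilage. Epiphyseal arrays of animals 1 and 2 were bright in osteoclast and macrophage markers, with sums of 64753 and 30585 against 3283 and 2709 in animals 4 and 5. That of animal 1 was also bright in muscle markers, at 44155 against 5435 to 12881 in the other epiphyseal arrays. No marker was listed at 0. Actin probe sets at the 3' end exceeded those at the 5' end, a sign of RNA length, by a log2 ratio of 3.48 to 4.94 in epiphyseal, 3.84 to 4.43 in resting, 4.09 to 4.83 in proliferative, 4.22 to 4.68 in transition and 3.88 to 4.67 in hypertrophic arrays. Its mean was 4.47 in proliferative and 4.03 in resting arrays. Where leaving out the arrays that stand apart lost a call, both values are given. The same holds for the transition array of animal 5, which was also left out. Calls gained are given only as counts, at the end. Otherwise the part of these tissues and of the actin ratio in the results was not tested.

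Of the 70 members, 34 passed the filter and 36 did not. Comparing hypertrophic with resting cartilage, the far ends of the growth plate, 19 members were called, 3 higher and 16 lower. Over all probe sets tested, 21.1% were called in that comparison, 9.32% higher and 11.8% lower. With no filter, so that every member counts, 19 of 70 members (27.1%) were called, as were 14.7% of all probe sets. The median log2 difference over all 70 members was -0.12, and over all 31042 probe sets 0.02. The lower calls were 8 Hox members, Shox2, Pitx1, Nkx6-1, Lhx9, Meis1, Pbx2, Alx1 and Six5, and the higher ones Irx5, Dlx5 and Dlx3. The 8 Hox members include Hoxa11-as, a non-coding RNA.

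**Figure D1:**
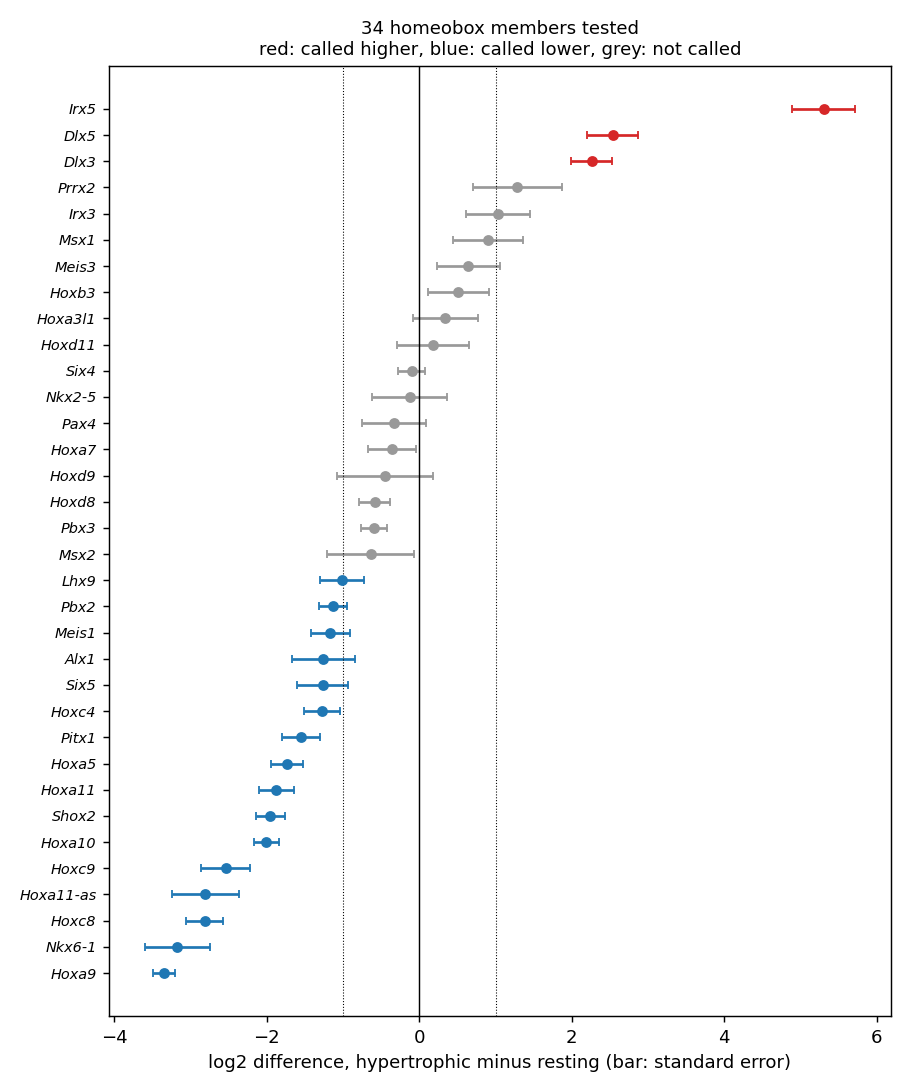
Log2 difference, hypertrophic minus resting, of the 34 members tested, as points with standard errors on a horizontal axis, one member per line. Dotted lines mark 2-fold; red points were called higher, blue lower and grey not called. Irx5 at 5.30 and Hoxa9 at -3.35 are the extremes of these probe sets.

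The other comparisons of 2 zones called fewer members than hypertrophic minus resting, and also a smaller share of all probe sets. In proliferative against resting cartilage 6 members were called, 1 higher and 5 lower, where 6.09% of probe sets were called (1.97% higher, 4.12% lower). In hypertrophic against proliferative cartilage 12 were called, 3 higher and 9 lower, where 18.7% of probe sets were called (9.59% higher, 9.07% lower). Transition minus epiphyseal cartilage, both of the second label set, gave 13 calls, 2 higher and 11 lower, beside 13.8% of probe sets (4.33% higher, 9.46% lower). Across the label sets, transition minus proliferative gave 5 calls (1 higher, 4 lower), beside 8.43% of probe sets (3.11% higher, 5.31% lower), and hypertrophic minus transition 3 (2 higher, 1 lower), beside 9.27% of probe sets (6.78% higher, 2.49% lower). The F test across all 5 zones passed for 21 members, at a background of 55.6%, and the F test over the 3 zones of shared wording for 21, at 47.9%. With no filter, 13 members (18.6%) were called in transition minus epiphyseal cartilage, against 9.33% of all probe sets. In the other comparisons those shares were 8.57% against 3.9% (proliferative minus resting), 15.7% against 12.8% (hypertrophic minus proliferative), 7.14% against 5.37% (transition minus proliferative) and 4.29% against 6.54% (hypertrophic minus transition). For the F tests they were 30% against 34.5% over 5 zones and 27.1% against 29.5% over 3 zones. These backgrounds are over probe sets, while a member is its brightest probe set. Scaling the arrays to one median changed the split of all calls in transition minus epiphyseal cartilage, of which 62.6% were then higher, against 31.4% as reported. Hoxa5, Hoxa10, Hoxc4 and Meis1 then fell short of 2-fold there, at -0.91, -0.85, -0.82 and -0.80.

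**Figure D2:**
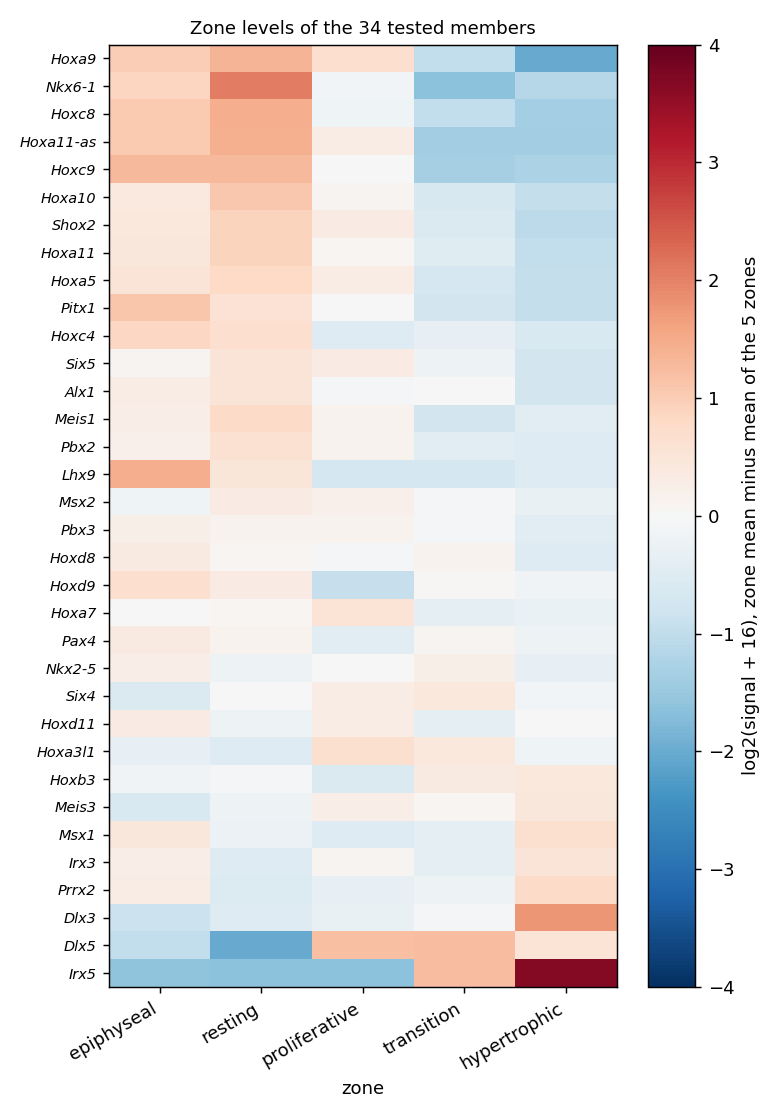
Each line is 1 of the 34 members tested and each column a zone; colour is the zone's mean log2(signal + 16) minus the mean of the 5 zones, red above and blue below. Members are ordered by their hypertrophic minus resting difference. Those at the top run red to blue across the zones, and Dlx3, Dlx5 and Irx5 at the bottom are higher in hypertrophic than in resting cartilage. Dlx5 is highest in the proliferative and transition zones, at 1.22 and 1.24, and stands at 0.53 in the hypertrophic zone.

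Of the 7 HoxA members, 5, the non-coding Hoxa11-as among them, were called lower in hypertrophic than in resting cartilage, where 11.8% of probe sets were. Hoxa9 acts in the axial skeleton and the proximal limb, in mice. Its signals, animals in numerical order (1, 2, 4 and 5 for epiphyseal cartilage), were 3871, 4863, 5435 and 6376 in epiphyseal cartilage, 6717, 6724, 7310.4, 5720.4 and 6063 in the resting zone, 4254, 3632, 3892, 4112 and 4249.6 in the proliferative zone, 1298, 1214, 1247, 1484 and 1123 in the transition zone, and 632, 463, 574, 720.3 and 772 in the hypertrophic zone. Every transition and hypertrophic array of Hoxa9 lay below every epiphyseal, resting and proliferative array. Hypertrophic minus resting was -3.35 ± 0.14 on the log2 scale (SE, adjusted p = 5.13e-15), with all 5 animals lower. Hypertrophic minus proliferative was -2.66 ± 0.14 (adjusted p = 4.04e-13), and transition minus epiphyseal -1.98 ± 0.15 (adjusted p = 5.36e-10). Hoxa9 was also called lower in transition than in proliferative cartilage (-1.65) and in hypertrophic than in transition cartilage (-1.01). The last call stood near 2-fold and fell short of it without animal 2, at -0.92, or animal 3, at -0.98. Proliferative minus resting was -0.69 (adjusted p = 0.00137), which is under 2-fold.

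Hoxa10 is known in mice for the upper limb segment and for the lumbar spine. Its signals were 1373, 1421, 1544 and 1654 in epiphyseal cartilage, 2328, 1821, 4116, 1975 and 2264 in the resting zone, 1012, 1045, 1681, 1270.3 and 1279 in the proliferative zone, 484, 629, 1064, 845 and 701 in the transition zone, and 428, 504, 571, 849 and 639 in the hypertrophic zone. The hypertrophic arrays overlapped the transition arrays and lay below all others. Hypertrophic minus resting was -2.01 ± 0.16 (SE, adjusted p = 4.87e-10) and hypertrophic minus proliferative -1.07 ± 0.16 (adjusted p = 1.31e-05). The brightest resting array, of animal 3, was also the brightest in muscle markers. Without the resting arrays bright in muscle markers the hypertrophic minus resting difference was -1.68, and without animal 3 the hypertrophic minus proliferative one was -0.95, short of 2-fold. In transition minus epiphyseal cartilage it was -1.15 ± 0.18 (adjusted p = 2.63e-05), and -0.85 with arrays scaled to one median.

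Hoxa5 patterns the neck and upper thorax in mice. Its signals were 1236, 1855, 1139 and 840.4 in epiphyseal cartilage, 1494, 1883, 1873, 1233 and 1071 in the resting zone, 1379.7, 919, 914, 1179.6 and 938 in the proliferative zone, 567, 601, 556, 508 and 406 in the transition zone, and 324, 339, 426, 559 and 566 in the hypertrophic zone. The transition and hypertrophic arrays lay below all arrays of the other 3 zones. It fell in hypertrophic against resting (-1.74 ± 0.21, adjusted p = 2.55e-07), hypertrophic against proliferative (-1.26 ± 0.21, adjusted p = 3.14e-05) and transition against epiphyseal cartilage (-1.21 ± 0.22, adjusted p = 0.000221). The last was -0.93 without the epiphyseal arrays of animals 1 and 2 and -0.91 with arrays scaled to one median, both under 2-fold.

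Hoxa11 is required with its paralogs for the middle limb segment, which holds the tibia, in mice. Its signals were 524, 437, 403 and 688 in epiphyseal cartilage, 889, 611, 707, 579.8 and 679 in the resting zone, 412, 381, 402, 455 and 289 in the proliferative zone, 288, 176, 277, 211 and 348 in the transition zone, and 169.6, 184, 147, 290.1 and 122 in the hypertrophic zone. Hypertrophic and resting arrays did not overlap, and hypertrophic and proliferative arrays met at one value each (290.1 and 289.3). Hypertrophic minus resting was -1.88 ± 0.23 (SE, adjusted p = 3.44e-07) and hypertrophic minus proliferative -1.06 ± 0.23 (adjusted p = 0.000612); without animal 3 the second was -0.99. In transition minus epiphyseal cartilage it stayed under 2-fold, at -0.94 (adjusted p = 0.00499).

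Hoxa11-as is a non-coding RNA from the opposite strand of Hoxa11. Its signals were 214, 178, 329 and 216 in epiphyseal cartilage, 312, 207, 258, 367 and 382 in the resting zone, 199, 166, 164, 42.3 and 146 in the proliferative zone, 20.9, 7.5, 28.3, 23.4 and 108 in the transition zone, and 111, 15.5, 11.3, 18.3 and 32.7 in the hypertrophic zone. Hypertrophic arrays lay below all resting arrays and transition arrays below all epiphyseal arrays, while both overlapped the proliferative arrays. It exceeded the array median in 11 arrays and passed the filter through the zones where it was bright. The drop in hypertrophic against resting cartilage was -2.81 ± 0.44 (SE, adjusted p = 1.33e-05), and in transition against epiphyseal cartilage -2.40 ± 0.47 (adjusted p = 0.000454). It was also called lower in hypertrophic and in transition than in proliferative cartilage, at -1.70 and -1.69. The proliferative array of animal 4, at 42.3, lay apart from the others, at 146.4 to 198.6. Without animal 2 the transition minus proliferative call was lost (adjusted p = 0.0751). Which strand of the locus the probes of either gene read was not checked.

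Hoxa7 and Hoxa3l1, the other HoxA members, were not called. Hoxa7 averaged 163 ± 93.9 in the hypertrophic zone, 278 ± 107 in the proliferative zone and 193 ± 59 in the resting zone (SD, n = 5 each). Against the proliferative zone it stood at -0.83 in hypertrophic (adjusted p = 0.0408) and -0.92 in transition cartilage (adjusted p = 0.0387), both under 2-fold. Hoxa3l1 stood at 1.17 ± 0.43 in proliferative minus resting (adjusted p = 0.0735).

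**Figure D3:**
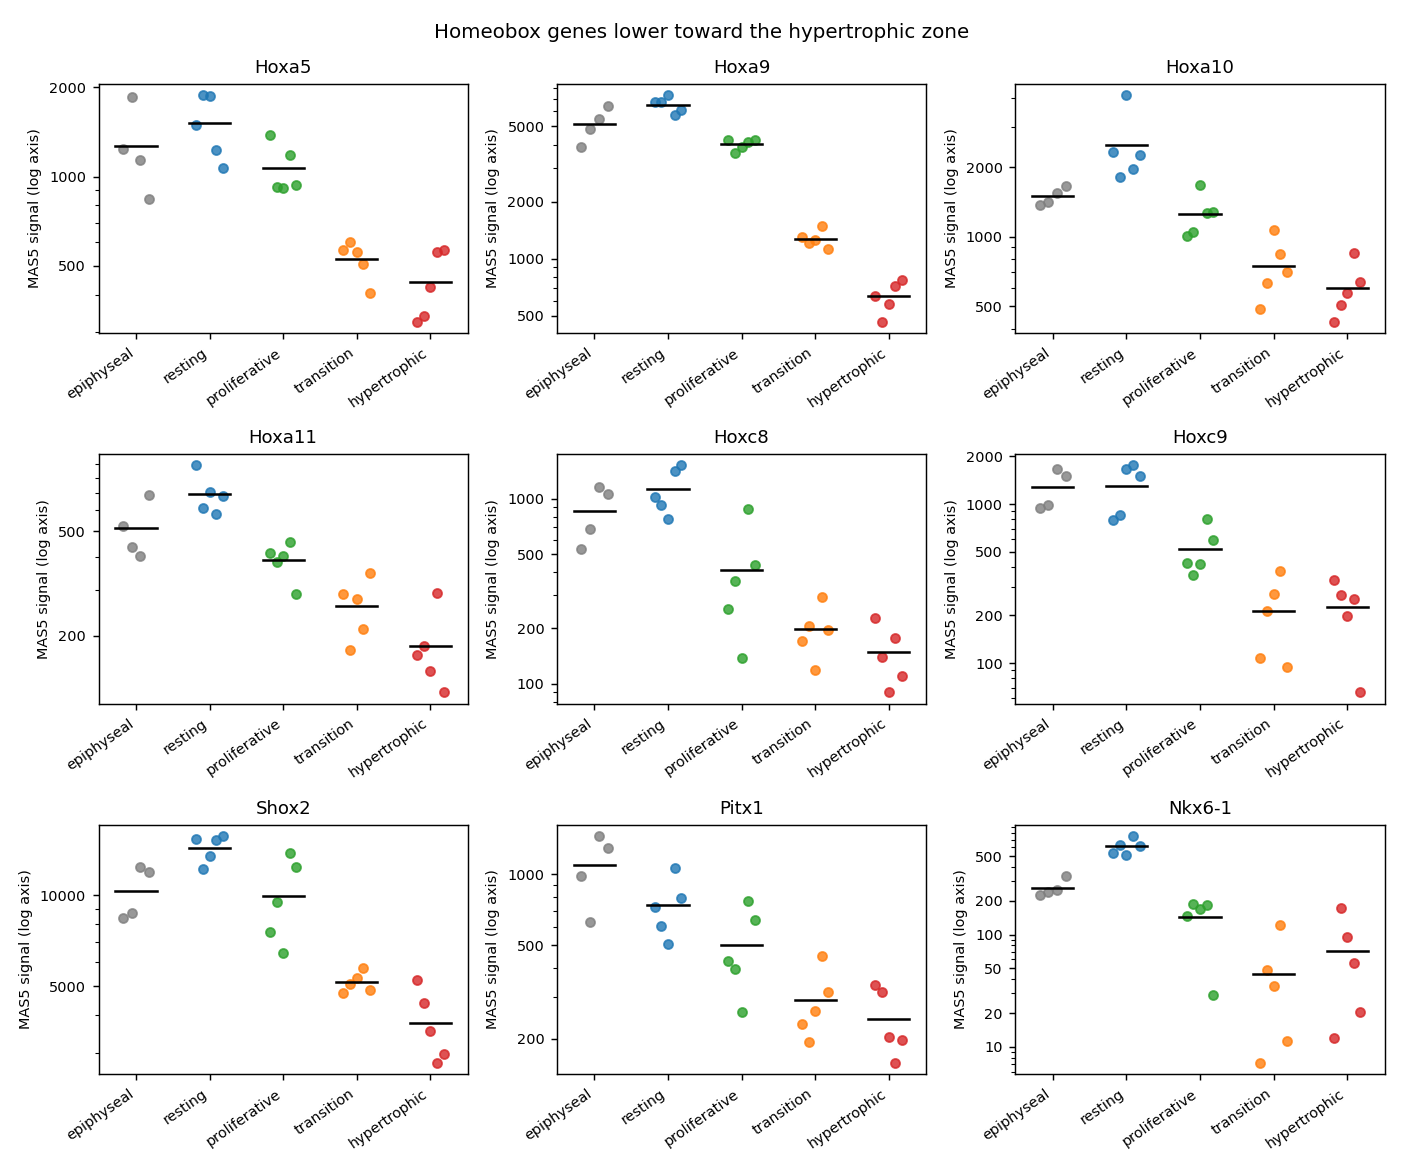
Signal per array (log axis) by zone for 9 members called lower in hypertrophic than in resting cartilage; points are animals and bars zone means. Every transition and hypertrophic array of Hoxa9 lies below its other arrays, and 4 of 5 proliferative arrays of Hoxc8 lie below all resting arrays.

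Of 4 HoxC members, the 3 tested were called lower in proliferative than in resting cartilage, where 4.12% of probe sets were. In that comparison Hoxa10, Hoxa11 and Hoxa9 stood at -0.94, -0.81 and -0.69, under 2-fold, and the difference between the clusters was not tested. Hoxc8 patterns the thorax in mice. Its signals were 532, 682, 1155 and 1057 in epiphyseal cartilage, 1019.6, 928, 780.2, 1406 and 1508 in the resting zone, 252, 361, 137, 876 and 439.6 in the proliferative zone, 171, 206, 119, 294 and 195 in the transition zone, and 225, 140.4, 90, 178 and 111 in the hypertrophic zone. The proliferative array of animal 4, at 875.7, lay within the resting range, and the hypertrophic arrays lay below every resting and epiphyseal array. Proliferative minus resting was -1.61 ± 0.24 (SE, adjusted p = 3.69e-05) and hypertrophic minus resting -2.81 ± 0.24 (adjusted p = 1.09e-09). Hypertrophic minus proliferative was -1.20 ± 0.24 (adjusted p = 0.000325), and -0.95 without animal 4. Transition cartilage was lower than epiphyseal by the same test, at -1.84 ± 0.26 (adjusted p = 8.90e-06).

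Hoxc9, also a thoracic patterning gene in mice, gave signals of 938, 984, 1660.3 and 1510.4 in epiphyseal cartilage, 792, 847, 1649, 1747 and 1496 in the resting zone, 426, 359, 420.2, 809 and 598 in the proliferative zone, 107, 214, 271, 378 and 94.4 in the transition zone, and 331, 269.5, 198, 254 and 65.4 in the hypertrophic zone. Resting and epiphyseal arrays overlapped each other and lay above all transition and hypertrophic arrays. Transition minus epiphyseal was -2.66 ± 0.34 (SE, adjusted p = 2.44e-06) and hypertrophic minus resting -2.54 ± 0.32 (adjusted p = 5.41e-07). Against the proliferative zone it fell in hypertrophic cartilage (-1.26, adjusted p = 0.00285) and in transition cartilage (-1.34, adjusted p = 0.00337). Proliferative minus resting was -1.28 ± 0.32 (adjusted p = 0.00724), lost without animal 3 (adjusted p = 0.0613) and without the resting arrays bright in muscle markers (-0.99, adjusted p = 0.269). Hypertrophic minus proliferative was -0.84 without animal 5.

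Hoxc4 acts at the neck to thorax border in mice. Its signals were 460.5, 446, 643 and 567 in epiphyseal cartilage, 479.8, 453, 358, 522 and 554 in the resting zone, 98, 201, 156, 304 and 317 in the proliferative zone, 176, 214, 208, 339 and 219.5 in the transition zone, and 209, 228, 191, 162 and 141 in the hypertrophic zone. Resting arrays lay above all proliferative and hypertrophic arrays. It was called lower in hypertrophic (-1.28 ± 0.24, adjusted p = 0.000115) and proliferative (-1.18 ± 0.24, adjusted p = 0.00121) than in resting cartilage, and in transition than in epiphyseal cartilage (-1.11 ± 0.26, adjusted p = 0.00194). A second probe set of Hoxc4 disagreed, with a hypertrophic minus resting difference of 0.28 ± 0.48. With the mean of both probe sets none of the 3 calls remained, at -0.50, -0.41 and -0.46. The proliferative minus resting call was also lost without the resting arrays bright in muscle markers (-1.06, adjusted p = 0.0991). It fell short of 2-fold without animal 1 (-0.94). HoxC gene Hoxc5 read at most 60.1 in any array and was not tested.

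Few HoxB and HoxD genes passed the filter, so few could be called. The only call was Hoxb3, in hypertrophic minus proliferative cartilage, where 9.59% of probe sets were called higher. Of 6 HoxB members only Hoxb3 passed the filter, and of 7 HoxD members Hoxd8, Hoxd9 and Hoxd11. Hoxb3 averaged 178 ± 80.5 in the hypertrophic zone and 84.7 ± 49.9 in the proliferative zone (SD, n = 5 each), a log2 difference of 1.01 ± 0.40 (adjusted p = 0.0495). The call was kept under 6 of 17 alternatives, and 4 of 5 animals were higher. The adjusted p reached 0.171 without animal 3 and 0.0585 when animals 1 and 2 lost their epiphyseal arrays. Without the transition array of animal 5 it was 0.052. Hoxd8 varied across the 5 zones by the F test (adjusted p = 0.00925) without a 2-fold difference; its hypertrophic minus resting difference was -0.59 ± 0.21 (adjusted p = 0.0243). Hoxd11, which acts with Hoxa11 in the mouse forelimb and hindlimb, averaged 125 ± 71.2 in the hypertrophic and 101 ± 47.1 in the resting zone (SD, n = 5 each). Hoxd9 ranged from 8.6 to 407.9 over all arrays, with no call.

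Of the Hox partners, Meis1 and Pbx2 were called. Meis1 read 335, 254, 301 and 433 in epiphyseal cartilage, 438, 366, 455, 498 and 539 in the resting zone, 236, 251, 249.7, 361 and 392 in the proliferative zone, 145, 109.5, 266, 222 and 80.7 in the transition zone, and 207, 151, 244, 289 and 121 in the hypertrophic zone. Hypertrophic and resting arrays did not overlap, at -1.17 ± 0.26 (SE, adjusted p = 0.000656). Transition and epiphyseal arrays overlapped, at -1.08 ± 0.28 (adjusted p = 0.00438). Without animal 5 both differences fell short of 2-fold, at -0.96 and -0.75, and the second did so also with quantile normalization (-0.85). Transition minus epiphyseal was also under 2-fold without the transition array of animal 5 alone (-0.84). Pbx2 averaged 1509 ± 308 in the hypertrophic and 3408 ± 1253 in the resting zone (SD, n = 5 each), at -1.13 ± 0.18 (adjusted p = 2.19e-05). The resting array of animal 3 read 5563, against 2387 to 3219.6 in the others, and without animal 3 the difference was -0.80, under 2-fold, as it was without the resting arrays bright in muscle markers (-0.94). Pbx3 averaged 1160.3 ± 366 in the hypertrophic and 1697 ± 265 in the resting zone, at -0.59 (adjusted p = 0.00616), under 2-fold. Meis3 gave 0.64 ± 0.41 in that comparison (adjusted p = 0.226). Meis2 and Pbx4 were not tested, at signals up to 58.9 and 150.1.

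Shox2 is needed for the upper limb skeleton and for chondrocyte maturation in mice. Its signals were 8396, 8733, 12387 and 11888 in epiphyseal cartilage, 15293, 12185, 13434, 15236 and 15689.8 in the resting zone, 7572, 9463, 6457, 13822 and 12381 in the proliferative zone, 4742, 5091, 5314, 5734 and 4862 in the transition zone, and 5231, 4382, 3544, 2786 and 2986 in the hypertrophic zone. Every hypertrophic array lay below every resting, proliferative and epiphyseal array. Hypertrophic minus resting was -1.95 ± 0.19 (SE, adjusted p = 6.54e-09) and hypertrophic minus proliferative -1.37 ± 0.19 (adjusted p = 2.46e-06). The other 2 probe sets of Shox2 gave -1.88 ± 0.27 and -1.30 ± 0.29 for hypertrophic minus resting. Transition minus epiphyseal, -0.95 (adjusted p = 0.000891), stayed under 2-fold.

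Pitx1 specifies the hindlimb. It read 986, 626, 1455 and 1294 in epiphyseal cartilage, 729.6, 606, 505, 1063 and 791 in the resting zone, 429, 397, 261, 769.8 and 639 in the proliferative zone, 231, 195, 262, 449 and 317 in the transition zone, and 339, 316, 204, 158 and 198 in the hypertrophic zone. Its transition arrays lay below its epiphyseal arrays, and its hypertrophic below its resting arrays. Transition minus epiphyseal was -1.74 ± 0.27 (SE, adjusted p = 2.47e-05) and hypertrophic minus resting -1.55 ± 0.25 (adjusted p = 1.65e-05).

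Lhx9, a LIM homeobox gene of limb bud and gonad in mice, read 315, 694, 426 and 528 in epiphyseal cartilage, 260.0, 295, 209.8, 284 and 159 in the resting zone, 55.9, 74.8, 96.2, 148 and 126 in the proliferative zone, 93.9, 99.1, 116, 74.4 and 90.3 in the transition zone, and 107, 131, 91.5, 81.6 and 147 in the hypertrophic zone. It exceeded the array median in 8 arrays, so it passed through its bright zones. Every epiphyseal array exceeded every transition array, at -2.14 ± 0.31 for transition minus epiphyseal (SE, adjusted p = 1.18e-05). Proliferative minus resting was -1.18 ± 0.29 (adjusted p = 0.0063) and hypertrophic minus resting -1.01 ± 0.29 (adjusted p = 0.00642). Both last calls stood at their margins: the first was lost without animal 1 (adjusted p = 0.0541) or animal 2 (adjusted p = 0.0724), and the second fell short of 2-fold without animal 1, 2, 3 or 4 (-0.86 to -0.99) and without the hypertrophic array of animal 4 (-0.89). Alx1, a craniofacial cartilage gene, averaged 231 ± 168 in the hypertrophic zone and 484 ± 151 in the resting zone (SD, n = 5 each), at -1.26 ± 0.41 (adjusted p = 0.0159). It was lost without animal 5 (-0.96, adjusted p = 0.107) and without animal 2 (adjusted p = 0.052). It was also lost without the resting arrays bright in muscle markers (-1.23, adjusted p = 0.139).

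Nkx6-1, known from pancreatic beta cells and spinal motor neurons, read 223, 238, 247 and 330.1 in epiphyseal cartilage, 538, 632, 514, 756 and 616 in the resting zone, 145, 186, 168, 182 and 29.2 in the proliferative zone, 7.2, 47.9, 35, 121 and 11.2 in the transition zone, and 12, 174, 94.9, 56.2 and 20.3 in the hypertrophic zone. All resting arrays exceeded all others. It passed the filter through 11 arrays. Hypertrophic minus resting was -3.18 ± 0.43 (SE, adjusted p = 1.54e-06) and proliferative minus resting -2.15 ± 0.43 (adjusted p = 0.000992). Transition cartilage was lower than epiphyseal (-2.53 ± 0.46, adjusted p = 0.000179) and than proliferative (-1.52, adjusted p = 0.012). The last call was lost without animal 1 (adjusted p = 0.0812) or animal 3 (adjusted p = 0.0525) and fell short of 2-fold with 64 added to the signals (-0.93), and proliferative minus resting without the resting arrays bright in muscle markers (-1.83, adjusted p = 0.121).

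Dlx5 and Dlx3 differed the other way in hypertrophic minus resting cartilage. Dlx5 promotes chondrocyte maturation and osteoblast differentiation. Its signals were 310.4, 199.5, 292 and 220.4 in epiphyseal cartilage, 16, 173, 104, 278 and 178 in the resting zone, 1327, 1205, 1344, 1177 and 1074 in the proliferative zone, 1187, 1017, 1776, 1298 and 1072 in the transition zone, and 512, 610.0, 1237, 866 and 725 in the hypertrophic zone. Every proliferative, transition and hypertrophic array exceeded every resting and epiphyseal array, and the resting array of animal 1, at 16, was the lowest of all. Proliferative minus resting was 3.22 ± 0.33 (SE, adjusted p = 1.68e-07), with all 5 animals higher. Transition minus epiphyseal was 2.16 ± 0.36 (adjusted p = 6.67e-05) and hypertrophic minus resting 2.53 ± 0.33 (adjusted p = 1.16e-06). Without the resting arrays bright in muscle markers, which include that of animal 1, proliferative minus resting was 2.30 and hypertrophic minus resting 1.62. Dlx5 was the 1 member called higher in proliferative than in resting cartilage.

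Dlx3, which acts in osteoblasts and in hair and tooth epithelium, rose later. Its signals were 228, 149.7, 151 and 101 in epiphyseal cartilage, 160.4, 137, 164, 268 and 306 in the resting zone, 232, 233, 179.6, 313 and 204 in the proliferative zone, 199, 239.5, 258, 448 and 250.4 in the transition zone, and 666, 1774, 575, 1438 and 1053 in the hypertrophic zone. The hypertrophic arrays lay above every other array. Hypertrophic minus resting was 2.26 ± 0.27 (SE, adjusted p = 2.50e-07), hypertrophic minus proliferative 2.06 ± 0.27 (adjusted p = 1.34e-06) and hypertrophic minus transition 1.85 ± 0.27 (adjusted p = 2.05e-05). The hypertrophic array of animal 4, bright in osteoblast markers, read 1438, between those of animals 2 and 5, and without it hypertrophic minus resting was 2.24. Dlx1, at up to 270.0, was not tested.

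**Figure D4:**
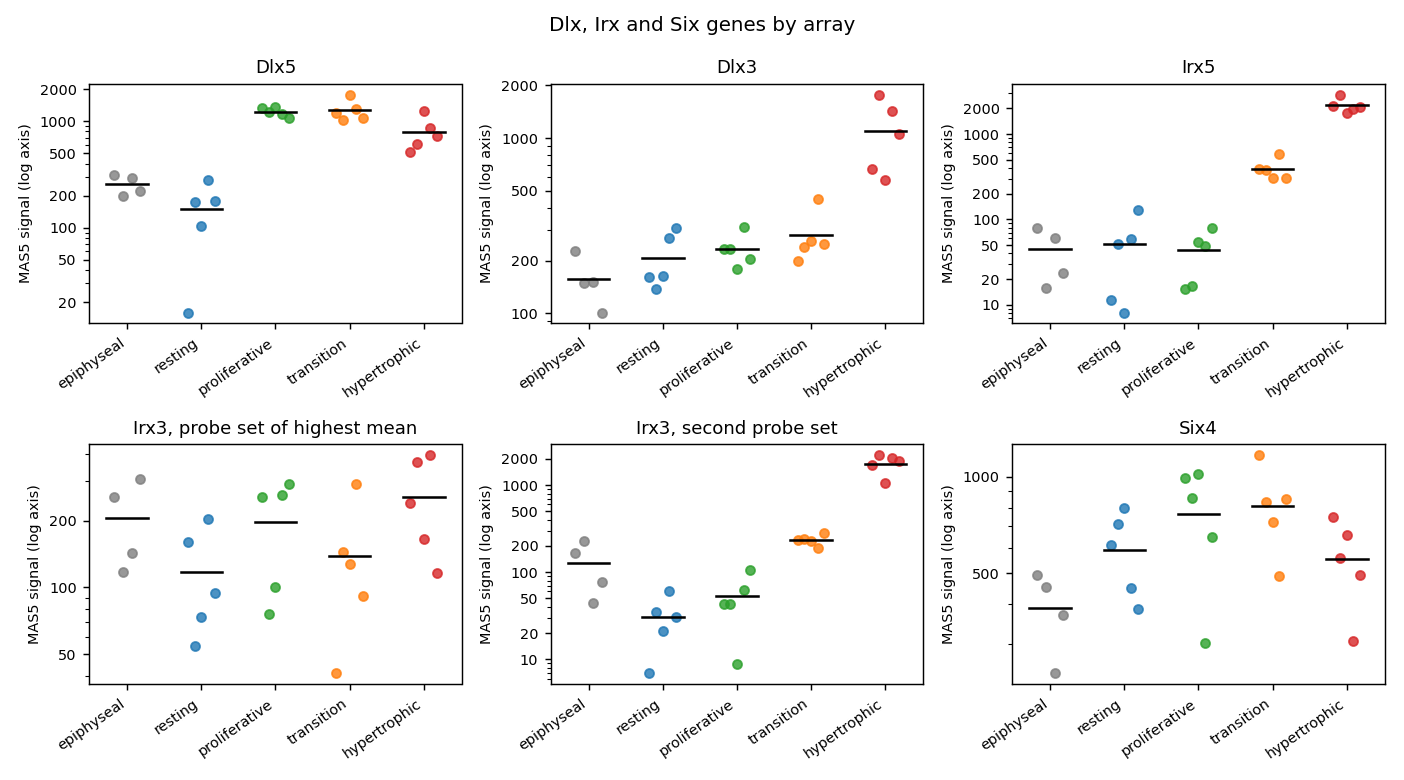
Signal per array (log axis) by zone for Dlx5, Dlx3, Irx5, 2 probe sets of Irx3 and Six4; points are animals and bars zone means. Dlx5 is high from the proliferative zone on, Dlx3 in hypertrophic arrays, and Irx5 and the second Irx3 probe set in transition and hypertrophic arrays.

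Irx5 had the largest difference in hypertrophic minus resting cartilage among the probe sets that stood for the 34 members tested; a second probe set of Irx3 gave 5.32. With Irx3 and Irx6 it forms a cluster of Iroquois genes on chromosome 19, with no other coding gene between them, and it patterns heart and hindlimb in mice. Its signals were 79.5, 15.7, 59.9 and 23.6 in epiphyseal cartilage, 11.4, 51.9, 8.1, 58.5 and 129.6 in the resting zone, 15.1, 16.7, 55.1, 49 and 80.3 in the proliferative zone, 392, 382, 309, 578 and 308 in the transition zone, and 2124, 2914, 1778, 1989 and 2062 in the hypertrophic zone. Hypertrophic arrays lay above all transition arrays, and these above all arrays of the other 3 zones. Hypertrophic minus proliferative was 5.33 ± 0.41 (SE, adjusted p = 2.73e-10) and hypertrophic minus resting 5.30 ± 0.41 (adjusted p = 1.99e-10). Transition cartilage was higher than epiphyseal (2.95 ± 0.44, adjusted p = 1.89e-05) and than proliferative (2.89 ± 0.41, adjusted p = 1.30e-05), and hypertrophic higher than transition (2.43 ± 0.41, adjusted p = 0.00012). Since low signals are compressed by the added 16, these differences are on that scale; with 64 added, hypertrophic minus resting was 4.35, and with 1 added 5.97. Irx5 passed the filter through 10 arrays, those of the transition and hypertrophic zones; with no filter the adjusted p of hypertrophic minus resting was 1.33e-10. The hypertrophic array of animal 4 read 1989, within the range of the others, and without it hypertrophic minus resting was 5.45.

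A second Irx5 probe set gave a hypertrophic minus resting difference of 1.05 ± 0.45 (adjusted p = 0.0917, no filter), and the mean of both probe sets one of 3.18. The second probe set stood at 0.73 in hypertrophic minus proliferative and 0.67 in transition minus epiphyseal cartilage. It stood at 0.20 in transition minus proliferative and 0.53 in hypertrophic minus transition cartilage. By itself it met the call in none of these comparisons. Irx3, the neighbour of Irx5, had a pair of probe sets of nearly equal mean that disagreed, and another that was not tested. The one taken by the rule read 254, 118, 143 and 307 in epiphyseal cartilage, 160.0, 54.4, 73.9, 202 and 94.1 in the resting zone, 256, 75.6, 100.4, 259.7 and 292 in the proliferative zone, 41.1, 144, 127, 291 and 91.8 in the transition zone, and 239.9, 366, 166, 393 and 117 in the hypertrophic zone. Its hypertrophic and resting arrays overlapped, at 1.03 ± 0.42 (SE, adjusted p = 0.0501), and it was not called. The other read 165, 226, 43.7 and 77.2 in epiphyseal cartilage, 6.9, 34.8, 20.9, 60.3 and 30.4 in the resting zone, 42.8, 42.9, 8.9, 63.2 and 105 in the proliferative zone, 232, 243, 228, 192 and 281 in the transition zone, and 1693, 2200.3, 1053, 2028 and 1873 in the hypertrophic zone. Its hypertrophic arrays lay above every other array, and its transition arrays above all resting and proliferative arrays. That probe set gave 5.32 ± 0.38 for hypertrophic minus resting (adjusted p = 2.53e-11, no filter) and 4.83 ± 0.38 for hypertrophic minus proliferative (adjusted p = 2.39e-10). It was chosen for description after its values were seen. Irx1, Irx2 and Irx4 were not tested, at up to 171.7, 38.9 and 248.4.

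Of Msx, Prrx, Pax and Nkx2 genes, those tested (Msx1, Msx2, Prrx2, Pax4 and Nkx2-5) gave no call, and Six5 gave the calls of its family. With no filter, second probe sets of Prrx1 and Pax8 met the call in hypertrophic minus proliferative cartilage. They stood at 1.18 (limma, adjusted p = 0.0478) and 1.49 (adjusted p = 0.0413), against 0.25 and 0.70 for the probe sets of the rule. In hypertrophic minus transition cartilage the second Prrx1 probe set stood at 1.51 (adjusted p = 0.0175), the first at 0.01. Msx1, known for palate, tooth and nail development, averaged 238 ± 82 in the hypertrophic and 109 ± 62.6 in the proliferative zone (SD, n = 5 each), at 1.15 ± 0.46 (adjusted p = 0.051). Msx2 gave no call. Six5, from the sine oculis family, read 264, 310.3, 296 and 380.1 in epiphyseal cartilage, 402, 363, 516, 423 and 399 in the resting zone, 408, 178, 432, 555 and 362 in the proliferative zone, 184, 219, 249, 344 and 264 in the transition zone, and 227, 19.7, 196, 284 and 328 in the hypertrophic zone. Hypertrophic arrays lay below all resting arrays and overlapped the proliferative arrays. It was called lower in hypertrophic than in resting (-1.27 ± 0.34, adjusted p = 0.00377) and proliferative cartilage (-1.08 ± 0.34, adjusted p = 0.0139). Its hypertrophic array of animal 2 read 19.7 against 195.6 to 327.5 in the others, and without all arrays of animal 2 the differences were -0.73 and -0.74, under 2-fold. Six4 varied across the 5 zones (F test, adjusted p = 0.0018), averaging 811 ± 244 in transition (n = 5) and 390.4 ± 111 in epiphyseal cartilage (n = 4, SD), at 0.94 (adjusted p = 0.000679). Prrx2, of limb mesenchyme, gave 1.29 ± 0.58 for hypertrophic minus resting (adjusted p = 0.0817). Pax4 and Nkx2-5 gave no call.

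The 36 members not tested read between 1.2 and 349.8 over all arrays, and 28 of the 70 members exceeded the median in no array. The Hox genes among them were Hoxb2, Hoxb4, Hoxb6, Hoxb7, Hoxb13, Hoxc5, Hoxd1, Hoxd3, Hoxd4 and Hoxd10. The others were Pax1, Pax2, Pax6, Pax8 and Pax9, Lhx1, Lhx2, Lhx4 and Lhx5, Nkx2-1, Nkx2-2, Nkx2-3 and Nkx6-2, Irx1, Irx2 and Irx4, Tlx2 and Tlx3, Six3 and Six6, Dlx1, En2, Meis2, Pbx4, Pitx3 and Prrx1. Their highest single readings ran from 349.8 for Hoxd4 down to 30.4 for Pitx3. Pax1 and Pax9, which pattern the vertebral column and carry no homeodomain, averaged 100.1 ± 107 and 102 ± 128 in epiphyseal cartilage (SD, n = 4 each). Low signal on these arrays does not show that a gene is silent.

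In the resting zone against epiphyseal cartilage, no member was called, at a background of 1.51% (0.651% higher, 0.859% lower); with no filter the background was 0.873%. limma gave 9 of the 34 members tested an unadjusted p under 0.05. The share of all probe sets under that cut was not computed, so this count has no background beside it. The smallest adjusted p was 0.0974, for Hoxa10, at 0.56 ± 0.18. The differences ran from -1.08 ± 0.36 for Dlx5 to 1.13 ± 0.46 for Nkx6-1 (adjusted p = 0.234), whose resting arrays all lay above its epiphyseal arrays. With only these 2 zones fitted, and animal 3 left out for want of an epiphyseal array, 1 member was called.

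Genes of related families were read from lists chosen for this work. Of 87 other homeobox genes, 57 were on the array and 27 were tested; in hypertrophic minus resting 3 were called higher and 5 lower (9.32% and 11.8% of all probe sets), and in transition minus epiphyseal 1 higher and 8 lower (4.33% and 9.46% of all probe sets). Pou3f3, a POU gene of kidney and brain, averaged 217 ± 106 in hypertrophic and 3693 ± 718 in resting cartilage (SD, n = 5 each), at -4.11 ± 0.23 (SE, adjusted p = 4.11e-13). Satb1, a chromatin organizer, was lower in proliferative than in resting cartilage, 877 ± 272 against 3649.9 ± 251 (SD, n = 5 each), at -2.09 ± 0.17 (SE, adjusted p = 3.75e-09), and higher in hypertrophic than in proliferative cartilage at 2.09 ± 0.17 (SE, adjusted p = 6.17e-10). Barx1, of joints and stomach, rose in hypertrophic against proliferative cartilage by 2.97 ± 0.35 (SE, adjusted p = 3.40e-07). Tgif1, a repressor of retinoid and TGF-beta signals, was lower in transition than in proliferative cartilage at -2.16 ± 0.31 (SE, adjusted p = 1.53e-05). Zfhx4 was lower in hypertrophic than in resting cartilage at -1.97 ± 0.30 (SE, adjusted p = 1.06e-05), and Pou6f1 in proliferative than in resting cartilage at -1.30 ± 0.19 (SE, adjusted p = 2.47e-05). The list and these genes' identities were chosen with earlier results known.

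Of 10 listed T-box genes, 5 were on the array and 3 were tested. Tbx4, which drives hindlimb outgrowth, averaged 73.7 ± 48.4 in hypertrophic and 1153 ± 118 in resting cartilage (SD, n = 5 each), at -3.89 ± 0.38 (SE, adjusted p = 8.99e-09). Transition minus epiphyseal was -2.86 ± 0.41 (SE, adjusted p = 9.30e-06). Tbx18 moved in both directions: it was called lower in proliferative than in resting cartilage, at -1.11 ± 0.22 (SE, adjusted p = 0.00112), and higher in transition than in proliferative cartilage, at 1.19 ± 0.22 (SE, adjusted p = 0.000357). It was also lower in transition than in epiphyseal cartilage, at -1.34 ± 0.24 (SE, adjusted p = 0.000162), and in resting than in epiphyseal cartilage, at -1.42 ± 0.24 (SE, adjusted p = 0.000816). Tbx2 was not called. Tbx3 and Tbx5 were on the array but were not tested.

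Polycomb and Trithorax proteins keep Hox genes off or on. Of 36 listed genes, 31 were tested. In hypertrophic minus resting cartilage 6 were lower and 1 higher, at a background of 21.1%. In hypertrophic minus proliferative also 6 were lower and 1 higher, at 18.7%. In transition minus epiphyseal cartilage 0 were called, at 13.8%. Calls numbered 1 in proliferative minus resting (6.09%), 1 in transition minus proliferative (8.43%), 2 in hypertrophic minus transition (9.27%) and 1 in resting minus epiphyseal cartilage (1.51%). Cbx2, a reader of Polycomb marks, averaged 198 ± 56 in the hypertrophic and 931 ± 135 in the resting zone (SD, n = 5 each), at -2.18 ± 0.25 (SE, adjusted p = 1.14e-07). Cbx6 was lower in the same comparison at -1.86 ± 0.17 (SE, adjusted p = 1.93e-09). Kdm6b, a demethylase that removes the Polycomb mark, stood at -1.57 ± 0.18 (SE, adjusted p = 1.50e-07). Jarid2, a Polycomb partner, stood at -1.38 ± 0.18 (SE, adjusted p = 1.27e-06). Ash1l, a Trithorax protein, was lower in hypertrophic than in proliferative cartilage at -1.04 ± 0.14 (SE, adjusted p = 2.64e-06). Phc2, a Polycomb subunit, was the 1 gene higher in hypertrophic than in resting cartilage, at 1.47 ± 0.16 (SE, adjusted p = 8.32e-08), and in hypertrophic than in proliferative cartilage, at 1.80 ± 0.16 (SE, adjusted p = 4.89e-09). In hypertrophic minus resting cartilage the background was 9.32% higher and 11.8% lower. Summed over the list, signal was 30288 to 34138 in hypertrophic arrays and 40189 to 44384 in resting arrays.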

How the data were processed

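Per the submitters' processing notes, the authors made MAS5 signal values, and the deposited intensity values, in 1 table of all arrays, were used as given; no version or probe-level setting is named in those notes as supplied. A gene was named where the platform annotation gave 1 symbol (20826 probe sets); 57 control probe sets were left out. Tests ran on log2(signal + 16) in limma 3.58.1 (R 4.3.3) with zone and animal in one fit of all 24 arrays (15 residual degrees of freedom), and Benjamini-Hochberg adjustment over the 19213 probe sets tested. Sample descriptions tie each array to a numbered animal, and arrays of one number were taken as one animal. Deviations from zone means correlated at a median of 0.18 within numbers (46 pairs, -0.14 to 0.36). Between numbers the median was -0.05 (184 pairs, -0.26 to 0.23), so the ranges overlapped. Of 24 arrays, 21 correlated best with their own number. Zone differences were therefore estimated with the animal as a block, over 5 animals, of which 4 had an epiphyseal array. The p-values rest on the residual spread over all 24 arrays. limma moderated the spread of each probe set toward a trend with mean signal over all probe sets tested. The fit was tested on simulated data. Python 3.11.15 (pandas 2.3.3, matplotlib 3.10.9) drew the figures. The precision of arrays is limited by their number. Values per array are given for members called in at least 2 of 7 comparisons and for Hoxa5, Hoxa9, Hoxa10, Dlx5 and Irx5. For other lists, up to 6 genes with the smallest F test p are named. Members and lists were chosen with earlier results of these data known. Other pseudocounts, normalizations, filters, blocks, probe-set rules and left-out arrays were tried.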

Additional observations from a re-analysis of the deposited data

Results flagged for a closer look

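In 5 of 100 groups of arrays of called members, 1 array lay apart from the rest of its zone; chance gives about 1 in 20. Hoxa11-as read 42.3 in the proliferative array of animal 4, and 146.4 to 198.6 in the others. Nkx6-1 read 29.2 in the proliferative array of animal 5, against 145.4 to 186.3. Pbx2 read 1828.2 in the transition array of animal 4, against 1469.8 to 1552.9, and 997.6 in the hypertrophic array of animal 3, against 1531.2 to 1820.0. Six5 read 19.7 in the hypertrophic array of animal 2, against 195.6 to 327.5; its calls were lost without animal 2.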

How the results depend on the processing

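Of 58 calls of members over the 7 comparisons, 35 were kept under every alternative that could be run, and none of 1077 alternative values changed sign. The calls were already past 2-fold, so a change of sign was unlikely from the start. No alternative put another probe set alone in place of the called one. The second Hoxc4 probe set stood at 0.36, 0.28 and 0.20 where Hoxc4 was called lower. Irx5 calls counted as kept, while its second probe set met none of them. With the filter at the 75th percentile of each array, 3 members were called in proliferative minus resting, 12 in hypertrophic minus resting, 8 in transition minus epiphyseal and 3 in transition minus proliferative cartilage, since fewer members were tested. With only the zones compared in the fit, 1 was called in resting minus epiphyseal (animal 3 left out) and 3 in transition minus proliferative. Leaving out each animal in turn gave 4 to 8 calls in proliferative minus resting, 11 to 14 in hypertrophic minus proliferative, 16 to 19 in hypertrophic minus resting, 12 to 14 in transition minus epiphyseal, 0 in resting minus epiphyseal, 4 to 8 in transition minus proliferative (8 without animal 3) and 2 to 3 in hypertrophic minus transition, with 20 to 23 F tests over 5 zones and 18 to 22 over 3. Without the replicate block, these counts were 6, 11, 19, 14, 0, 5 and 3, with 18 and 19 F tests. In alternatives chosen after seeing the data, leaving out the resting arrays bright in muscle markers gave 3 calls in proliferative minus resting. Leaving out the epiphyseal arrays of animals 1 and 2 gave 16 calls in transition minus epiphyseal and 7 in proliferative minus resting. Leaving out the hypertrophic array of animal 4 gave 13 calls in hypertrophic minus proliferative and 18 in hypertrophic minus resting. Without the transition array of animal 5 there were 11 calls in hypertrophic minus proliferative, and as many as reported in the other comparisons. The cause of these changes was not tested. Scaling to one median moved the median of all probe sets tested to 0.22 in transition minus epiphyseal (-0.07 as reported) and -0.24 in hypertrophic minus transition (0.02 as reported), and the share of calls that were higher to 43.1% in the second, against 73.2%. That share was 53.6% in transition minus proliferative (36.9% as reported) and 42.6% in proliferative minus resting (32.3% as reported). Zone and label set cannot be told apart in comparisons that cross the label sets, and 36 members were too dim to be tested.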
